A study of Mus musculus with 6 samples.

Results

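The interleukin-10 and TGF-beta axis was followed through 10 genes, picked by their symbols from a table of 38087 mouse genes. They comprise the cytokine gene Il10 with its receptor chains Il10ra and Il10rb, the TGF-beta ligands Tgfb1, Tgfb2 and Tgfb3, the receptors Tgfbr1 and Tgfbr2, and the intracellular genes Smad3 and Smad7. All 10 were found once each, and all 10 were above 0 in every library and so passed the filter on low values. RNA from bone marrow-derived macrophages was sequenced in 6 libraries, 3 of cells given 10 nM resolvin D1 (RvD1) for 6 h and 3 of untreated cells. RvD1 is a lipid mediator made from docosahexaenoic acid and studied for its part in ending inflammation. Both groups came from male C57BL/6J mice, with no transgene or deleted allele named. The culture protocol gives an age of 8 to 10 weeks, and the sample labels give 2 to 4 months. Marrow cells of both groups had 7 days of macrophage colony-stimulating factor at 10 ng/ml and then 24 h without it. No vehicle is described for the untreated cells. Nothing states that replicate libraries stand for separate mice or cultures, so the p-values measure the spread between these libraries, which may be technical.

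Interleukin-10 is a cytokine that macrophages release to restrain inflammation. It binds the specific chain IL-10RA and the shared chain IL-10RB, and the kinases JAK1 and TYK2 then switch on the transcription factor STAT3. The TGF-beta ligands are secreted in a latent form, and once freed they bring the type II receptor TGFBR2 and the type I receptor TGFBR1 together. TGFBR1 phosphorylates SMAD2 and SMAD3, which enter the nucleus with SMAD4, while SMAD7 is an inhibitor that the pathway itself induces.

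The sequences just before the first exons of Tgfb1, Tgfb2 and Tgfbr1 are shown because Tgfb1 and Tgfb2 had the lowest and the highest log2 fold change of the ligands, and Tgfbr1 was the axis gene with the smallest p. Each line gives the 250 bases before the transcription start, in the direction of transcription, from RefSeq on build GRCm38.p6. Capitals mark 3 motifs that were searched on both strands. The first was the GC box GGGCGG, which factors of the SP family bind. The core of the TATA box, written TATAAA, was the second. The third was a short site for CREB factors, the cyclic AMP response element core TGACG.
Tgfb1: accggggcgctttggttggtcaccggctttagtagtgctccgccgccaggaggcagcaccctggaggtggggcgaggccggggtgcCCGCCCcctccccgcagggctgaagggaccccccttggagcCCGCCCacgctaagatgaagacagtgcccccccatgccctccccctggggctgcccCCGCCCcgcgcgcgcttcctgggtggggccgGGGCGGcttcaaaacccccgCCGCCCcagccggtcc
Tgfb2: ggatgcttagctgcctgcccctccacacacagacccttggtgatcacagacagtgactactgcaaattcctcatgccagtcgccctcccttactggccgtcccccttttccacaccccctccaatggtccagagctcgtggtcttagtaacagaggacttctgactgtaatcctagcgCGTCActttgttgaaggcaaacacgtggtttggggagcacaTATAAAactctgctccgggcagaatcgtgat
Tgfbr1: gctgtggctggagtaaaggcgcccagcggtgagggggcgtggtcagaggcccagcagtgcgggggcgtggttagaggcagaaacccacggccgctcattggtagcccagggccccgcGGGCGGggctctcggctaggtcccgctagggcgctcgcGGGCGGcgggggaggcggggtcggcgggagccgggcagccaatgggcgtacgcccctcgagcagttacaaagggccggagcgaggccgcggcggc
The Tgfb1 window lies at chr7:25686752-25687001 on the plus strand, the Tgfb2 window at chr1:186705990-186706239 on the minus strand and the Tgfbr1 window at chr4:47352972-47353221 on the plus strand. The Tgfb1 window held 5 GC boxes, with first bases at -164, -123, -67, -36 and -16 from the start, and neither of the other capitalised motifs. The Tgfb2 window held no GC box. It held a TATA core at -31 and an element core at -72, on the strand opposite to transcription. The Tgfbr1 window held 2 GC boxes, at -133 and -95. GC content was 75.2% in the Tgfb1 window, 53.6% in the Tgfb2 window and 74.8% in the Tgfbr1 window. Of 32851 windows of this length, 32.7% held a GC box, 12.4% a TATA core and 17.8% an element core. The short Smad motif CAGAC, present in 42.2% of windows, occurred at -221 and -204 before Tgfb2 and in neither of the other windows. None of the motif matches overlapped another. These matches describe letters only, and no binding was measured.

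None of the 10 axis genes passed the test in either direction, in a comparison in which 1.12% of the 18899 genes tested were called. The test was limma on the deposited log2 values, with a Benjamini-Hochberg adjusted p under 0.05 over all genes tested. By direction, 0.561% of all genes were called higher and 0.556% lower with RvD1. At an unadjusted limma p under 0.05 there were 2 axis genes, Tgfbr1 and Tgfb2, both higher with RvD1, against 19.9% of all genes (10.3% higher and 9.65% lower). The 3 RvD1 and 3 untreated values were apart in 1 axis gene, Tgfbr1, against 25.4% of all genes (12.6% higher and 12.8% lower). The share of axis genes with low unadjusted p-values was therefore close to the background, and the share with separated groups was below it. The median log2 fold change was 0.08 over the 10 genes and 0.00 over all genes tested. These counts come from a fit without the replicate number as a block. With that block 2 axis genes passed limma, Tgfb2 and Tgfbr1, beside 10% of all genes, and no label says what the numbers share.

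**Figure D1:**
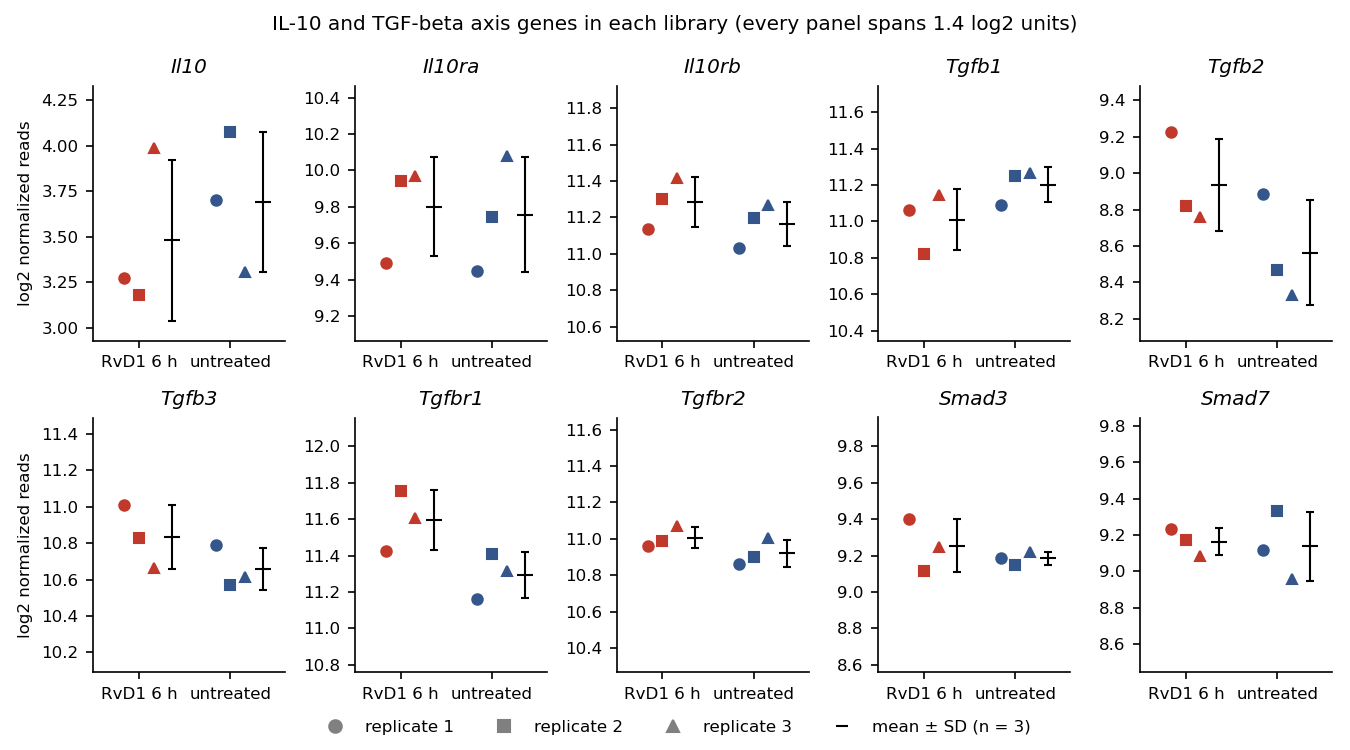
Log2 normalized reads (vertical axis) of the 10 genes in the RvD1 6 h libraries (red, left) and untreated libraries (blue, right); symbols give the replicate number, and the black bar gives the mean ± SD (n = 3). Every panel spans the same range, and only in the Tgfbr1 panel do the groups not overlap, with RvD1 libraries at 11.43 to 11.76 and untreated libraries at 11.16 to 11.41.

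Il10 was the least abundant of the axis genes, and its level did not differ beyond the spread between libraries. Il10 (chromosome 1, 131019845 to 131024974, mm10) lies in a cluster of related cytokine genes. On the log2 scale it stood at 3.27, 3.18 and 3.99 in RvD1 replicates 1, 2 and 3, against 3.70, 4.07 and 3.30 in untreated replicates 1, 2 and 3. The groups overlapped, with a high library in each. The log2 fold change was -0.21 (95% interval -0.95 to 0.52), and the limma adjusted p was 0.766. As a fold, the interval runs from 0.518 to 1.44, and the values rest on an estimated 7.01 to 19.0 reads per library. Leaving out 1 library moved the log2 fold change to between -0.47 without RvD1 replicate 3 and -0.02 without untreated replicate 2.

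The receptor chains of interleukin-10 were far more abundant than the cytokine, and neither passed the test. Il10ra (chromosome 9, 45253837 to 45269149), the ligand-binding chain, stood at 9.49, 9.94 and 9.97 in the RvD1 libraries, against 9.45, 9.75 and 10.08 in the untreated libraries. Replicate 1 was the lowest library in both groups. Its log2 fold change was 0.04 (-0.35 to 0.43; limma adjusted p = 0.912). Il10rb (chromosome 16, 91406164 to 91425834), the chain shared with interleukin-22 and the interferon lambdas, stood at 11.14, 11.30 and 11.41 in RvD1 libraries and at 11.03, 11.20 and 11.27 in untreated libraries. The groups overlapped, with RvD1 replicate 1 below untreated replicates 2 and 3. The log2 fold change of Il10rb was 0.12 (-0.08 to 0.32; limma adjusted p = 0.490). Part of the Il10rb reads may be uncertain, since the gene shares 569 exon bases on the same strand with Gm21970, a neighbouring gene at 8.997 to 9.43 (log2) in these libraries. Within a library, the log2 difference between Il10ra and Il10rb averaged -1.48 ± 0.15 in RvD1 libraries and -1.41 ± 0.20 in untreated libraries (SD, n = 3 each; two-sided exact permutation p = 0.7).

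None of the 3 TGF-beta ligand genes passed the test. The log2 fold change was negative for Tgfb1 and positive for Tgfb2 and Tgfb3. Tgfb1 (chromosome 7, 25687002 to 25705077), the ligand most associated with immune cells, stood at 11.06, 10.82 and 11.14 in RvD1 libraries, against 11.09, 11.25 and 11.27 in untreated libraries. RvD1 replicate 2 was the lowest, and RvD1 replicate 3 lay above untreated replicate 1, so the groups overlapped. The level with RvD1 was 0.875 of that in untreated cells (95% interval 0.760 to 1.01), a log2 fold change of -0.19 with a limma adjusted p of 0.271.

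Tgfb2 (chromosome 1, 186622792 to 186705989), a ligand best known from development and from mesenchymal cells, had the largest positive fold change of the axis genes. It stood at 9.22, 8.82 and 8.76 in RvD1 libraries, against 8.89, 8.47 and 8.33 in untreated libraries. Replicate 1 was the highest library in both groups, and untreated replicate 1 lay above RvD1 replicates 2 and 3. The level with RvD1 was 1.29-fold that in untreated cells (1.00 to 1.67), a log2 fold change of 0.37 with a limma unadjusted p of 0.0491 and an adjusted p of 0.248. With the replicate number as a block, the limma adjusted p of Tgfb2 was 0.0138. Without RvD1 replicate 1 the log2 fold change was 0.23 (limma adjusted p = 0.436), and without untreated replicate 1 it was 0.53 (limma adjusted p = 0.141). Tgfb3 (chromosome 12, 86056745 to 86079041), the third ligand, stood at 11.01, 10.83 and 10.66 in RvD1 libraries, against 10.79, 10.57 and 10.61 in untreated libraries. RvD1 replicate 3 lay below untreated replicate 1, and the log2 fold change was 0.18 (-0.04 to 0.39; limma adjusted p = 0.343). Genes on the opposite strand share exon bases with both, Gm29491 with 124 bases of Tgfb2, and Gm37804 and Gm48008 with 163 and 257 bases of Tgfb3. Whether strand was used in counting is not given in the sources used here, so reads there may belong to either gene.

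The balance between the ligands was compared within each library, where any factor that scales all genes of a library cancels. A trend with transcript length or GC content, described below, does not cancel in such a difference. Tgfb2 minus Tgfb1 was -1.84, -2.001 and -2.38 (log2) in RvD1 libraries, against -2.20, -2.78 and -2.93 in untreated libraries. The difference between the group means was 0.56, the largest of 6 such pairs, and RvD1 replicate 3 lay below untreated replicate 1 (two-sided exact permutation p = 0.2, and 0.4 adjusted over the 6 pairs). Tgfb3 minus Tgfb1 averaged -0.18 ± 0.27 in RvD1 libraries and -0.55 ± 0.21 in untreated libraries (SD, n = 3 each; exact permutation p = 0.2). Tgfb2 minus Tgfb3 averaged -1.90 ± 0.11 in RvD1 libraries and -2.09 ± 0.19 in untreated libraries (exact permutation p = 0.3). With 3 libraries a group, the smallest p that these 20 splits allow is 0.1, so no pair could have passed.

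Among the receptors, Tgfbr1 had the smallest p of the axis genes, and neither it nor Tgfbr2 passed the test. Tgfbr1 (chromosome 4, 47353222 to 47414931), the type I receptor kinase, stood at 11.43, 11.76 and 11.60 in RvD1 libraries, against 11.16, 11.41 and 11.31 in untreated libraries. The lowest RvD1 library and the highest untreated library were 11.43 and 11.41, so the groups were barely apart. The level with RvD1 was 1.23-fold that in untreated cells (1.06 to 1.43), a log2 fold change of 0.30 with a limma unadjusted p of 0.0113 and an adjusted p of 0.131. With the replicate number as a block, the limma adjusted p of Tgfbr1 was 0.00674. With that block and the length and GC correction described below, it was 0.1315. Tgfbr2 (chromosome 9, 116084293 to 116175360), the type II receptor that binds the ligand first, stood at 10.96, 10.99 and 11.07 in RvD1 libraries, against 10.86, 10.90 and 11.004 in untreated libraries. Its libraries were the closest together of the axis genes, and the log2 fold change was 0.08 (-0.05 to 0.22; limma adjusted p = 0.482). Within a library, Tgfbr1 exceeded Tgfbr2 by 0.59 ± 0.16 (log2) in RvD1 libraries and by 0.37 ± 0.12 in untreated libraries (SD, n = 3 each; two-sided exact permutation p = 0.2).

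Fold changes in this comparison moved with the base composition of the transcripts, and Tgfbr1 has the lowest GC content of the 10 genes. Where the mean log2 value was 5 or more, the median log2 fold change was 0.14 in 3284 genes under 45% GC, 0.00 in 6968 genes between 45 and 55%, and -0.14 in 2772 genes over 55%. The longest Tgfbr1 transcript has 5756 bases and 41.0% GC, and that of Tgfb2 5116 bases and 46.9% GC. After a correction of each library for length and GC content, the log2 fold change of Tgfbr1 was 0.10 (-0.11 to 0.30; limma adjusted p = 0.726) and that of Tgfb2 was 0.27 (-0.10 to 0.63; limma adjusted p = 0.564). Tgfb3 was then at 0.22 (0.01 to 0.43; limma unadjusted p = 0.0430, adjusted p = 0.395), the only axis gene at an unadjusted p under 0.05, against 12.1% of all genes. After the correction, without a replicate block, no axis gene passed, and 0.162% of all genes did. Whether the trend with GC content is technical was not tested.

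**Figure D2:**
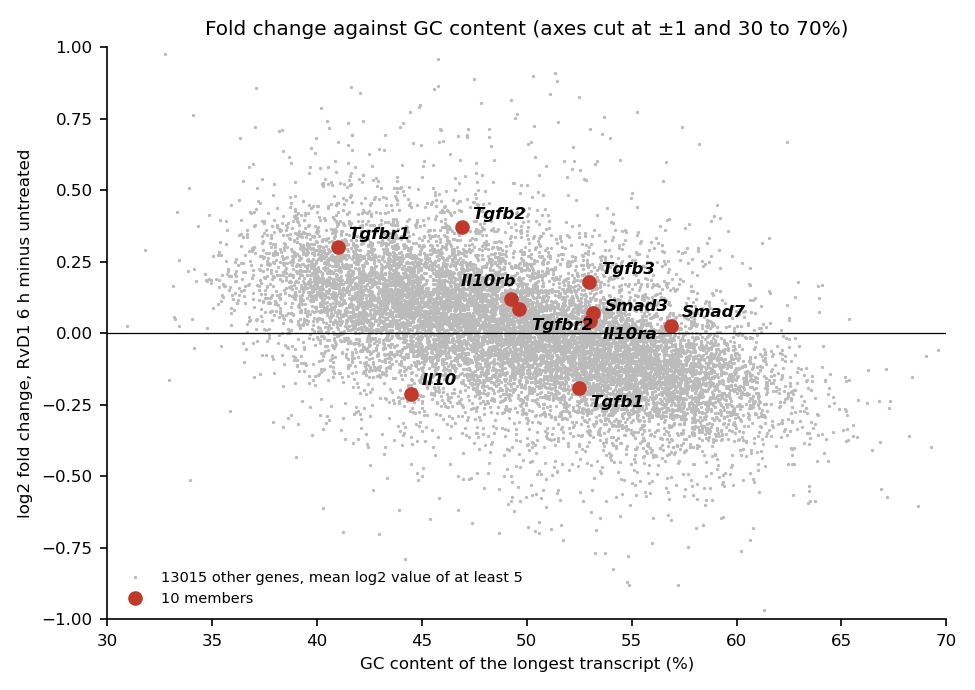
Log2 fold change of RvD1 6 h minus untreated (vertical axis) against GC content of the longest transcript (horizontal axis, %), for the 10 genes (red) and for other genes whose mean log2 value is 5 or more (grey). The grey cloud slopes downward, with medians of 0.14 under 45% GC and -0.14 over 55% GC, and Tgfbr1 lies inside it at 41.0% GC.

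**Figure D3:**
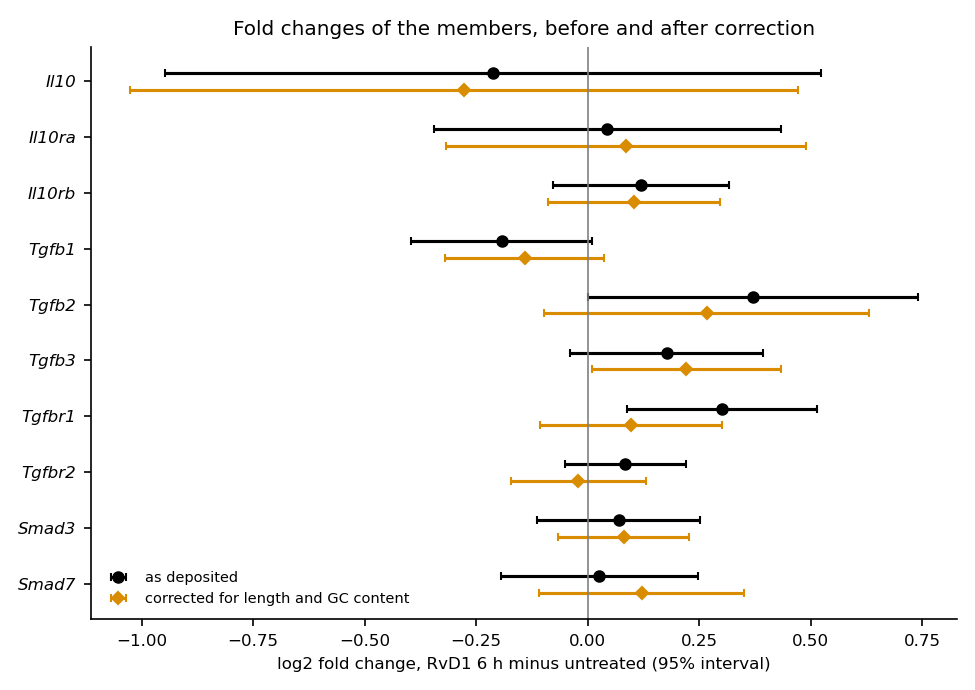
Log2 fold changes of the 10 genes (RvD1 6 h minus untreated, 3 libraries each) with 95% intervals from limma, on the deposited values (black circles) and after correction for length and GC content (orange diamonds). Tgfbr1 is at 0.30 on the deposited values and 0.10 after the correction, while Tgfb3 is at 0.18 and 0.22.

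The Smad genes of the axis had fold changes near 0, and neither passed the test. Smad3 (chromosome 9, 63646767 to 63757994), which carries the TGF-beta signal to DNA, stood at 9.40, 9.11 and 9.25 in RvD1 libraries, against 9.19, 9.15 and 9.22 in untreated libraries. RvD1 libraries held both the highest and the lowest value, and the log2 fold change was 0.07 (-0.11 to 0.25; limma adjusted p = 0.679). Smad7 (chromosome 18, 75367529 to 75395935), the inhibitor, stood at 9.23, 9.17 and 9.09 in RvD1 libraries, against 9.12, 9.33 and 8.96 in untreated libraries. The untreated libraries enclosed all RvD1 values, and the log2 fold change was 0.03 (-0.19 to 0.25; limma adjusted p = 0.909). For the partner Smad2 the value was 0.00 (-0.14 to 0.15; limma adjusted p = 0.980), and for Smad4 it was 0.06 (-0.06 to 0.18; limma adjusted p = 0.561).

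Levels were compared between genes as normalized reads per kb of the longest annotated transcript, as medians of the 6 libraries. Tgfb1 and Il10rb were highest, at 863 and 862 per kb, and their ranges overlapped. Tgfb3 and Tgfbr1 followed at 501 and 476, then Il10ra and Tgfbr2 at 263 and 248, and within each of these pairs the ranges overlapped too. Between one pair and the next they did not. Smad7 at 133, Smad3 at 116 and Tgfb2 at 86.5 came next, with ranges that overlapped from each to its neighbour. Il10 was apart from all others at 8.73 per kb (6.93 to 12.1 in RvD1 libraries and 7.54 to 12.8 in untreated libraries). In the same measure Tgfb1 stood at the 93.9 percentile of the genes tested and Il10 at the 22.2 percentile. With the median transcript length in place of the longest, 3 of the 10 genes kept their place in this order, so the order depends on which transcript these cells make.

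**Figure D4:**
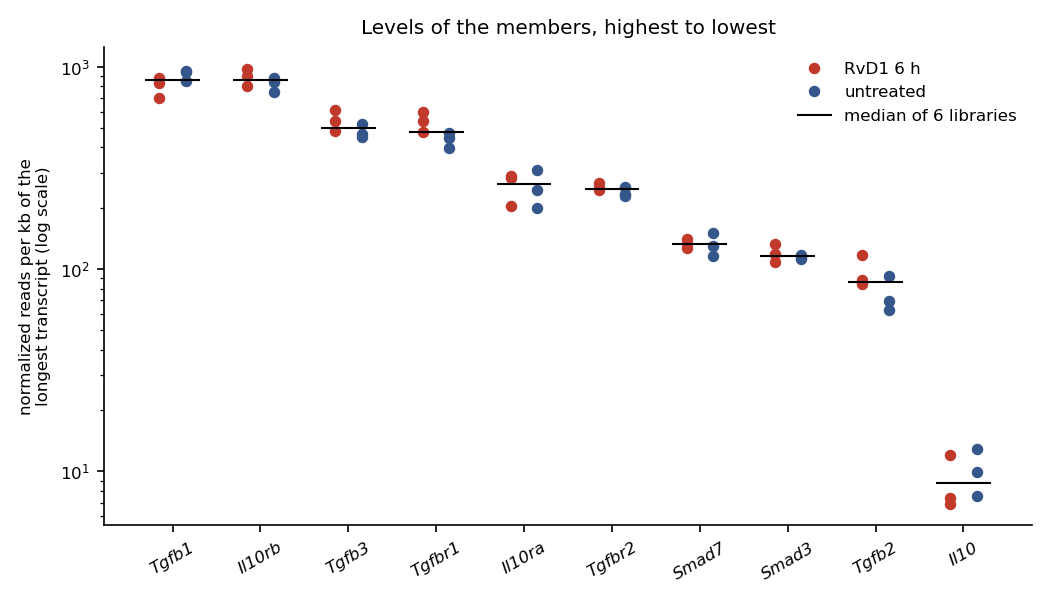
Normalized reads per kb of the longest transcript (vertical axis, log scale) for the 10 genes, ordered from highest to lowest, with each RvD1 6 h library in red, each untreated library in blue, and the median of the 6 libraries as a black line. The levels run from 863 for Tgfb1 to 8.73 for Il10.

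The genes around the axis were described through 9 lists with 124 genes in the table, of which 113 could be tested. The lists were chosen with earlier results of these data known, so their share of calls is a description and not a test. With RvD1, 2 of the 113 rose, none fell and 111 did not pass limma, beside 0.561% of all genes higher and 0.556% lower. Both were in the list of transcription factors known to act on Il10, where 9 of 11 did not pass. Sp1, a factor that binds GC boxes, stood at 10.83, 10.99 and 10.92 in RvD1 libraries, against 10.56, 10.57 and 10.58 in untreated libraries. It rose 1.27-fold (1.16 to 1.39; limma adjusted p = 0.0387). Creb1, the factor that binds cyclic AMP response elements, stood at 9.92, 9.97 and 9.83 in RvD1 libraries, against 9.59, 9.54 and 9.48 in untreated libraries. It rose 1.30-fold (1.17 to 1.43; limma adjusted p = 0.0387). Every RvD1 library was above every untreated library for both. The GC content of their longest transcripts is 43.6% for Sp1 and 39.6% for Creb1, and after the correction their log2 fold changes were 0.15 and 0.11 with limma adjusted p of 0.311 and 0.455. Both calls held only without RvD1 replicate 1 among the fits that left out 1 library, and the limma adjusted p over the 6 fits was 0.0324 to 0.157 for Sp1 and 0.0481 to 0.157 for Creb1.

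On the interleukin-10 side, none of the 9 genes of receptor signal transduction passed, with a median log2 fold change of 0.05. Jak1, the kinase bound to IL-10RA, had the smallest p, at a log2 fold change of 0.16 (limma adjusted p = 0.139) and 0.07 after the length and GC correction, and Stat3 was at 0.01 (-0.13 to 0.15; limma adjusted p = 0.954). None of the 16 genes that interleukin-10 is known to change in macrophages passed, and 8 were positive and 8 negative. Nfil3, a repressor induced by interleukin-10, was at 0.36 (limma adjusted p = 0.106). Unlike Jak1, Nfil3 had a larger value once libraries were corrected for length and GC content, at 0.46 (limma adjusted p = 0.149). Socs3, the feedback inhibitor downstream of STAT3, was at 0.00 (-0.25 to 0.25; limma adjusted p = 0.992). Of 11 other genes of the interleukin-10 cytokine family and its receptors, 3 passed the filter and none the test. The receptor chain gene Il20rb was at -0.91 (limma adjusted p = 0.151) near the floor of the table, and at -0.87 after the correction (limma adjusted p = 0.319).

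On the TGF-beta side, none of the genes in the 5 lists passed. Of 16 genes that store or activate latent TGF-beta, the median was 0.12, and Ltbp3, a latent TGF-beta binding protein, was at -0.22 (limma adjusted p = 0.0913) and at -0.13 after the correction. Of 12 co-receptors and related receptors the median was 0.06, and Bmpr2, the type II receptor of bone morphogenetic proteins, was at 0.38 (limma adjusted p = 0.0712). After the correction Bmpr2 was at 0.10 (limma adjusted p = 0.700), and with the test limited to genes whose mean log2 value was 5 or more, its limma adjusted p was 0.0494. The 13 Smads and Smad partners had a median of 0.18, with 12 positive, and the coactivator gene Ep300 was at 0.27 (limma adjusted p = 0.0977). After the correction for length and GC content, their median was 0.03 and Ep300 was at 0.17. The 16 brakes on the pathway had a median of 0.08, and Skil, a corepressor of SMAD proteins, was at 0.32 (limma adjusted p = 0.131). Skil was at 0.10 after the correction (limma adjusted p = 0.719), and at 0.42 without RvD1 replicate 1 (limma adjusted p = 0.0457). The 22 response genes had a median of -0.08, with 14 negative, and 0.00 after the correction. Among them the cell cycle inhibitor Cdkn2b was at -0.56 (limma adjusted p = 0.125), and at -0.42 after the correction (limma adjusted p = 0.367).

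**Figure D5:**
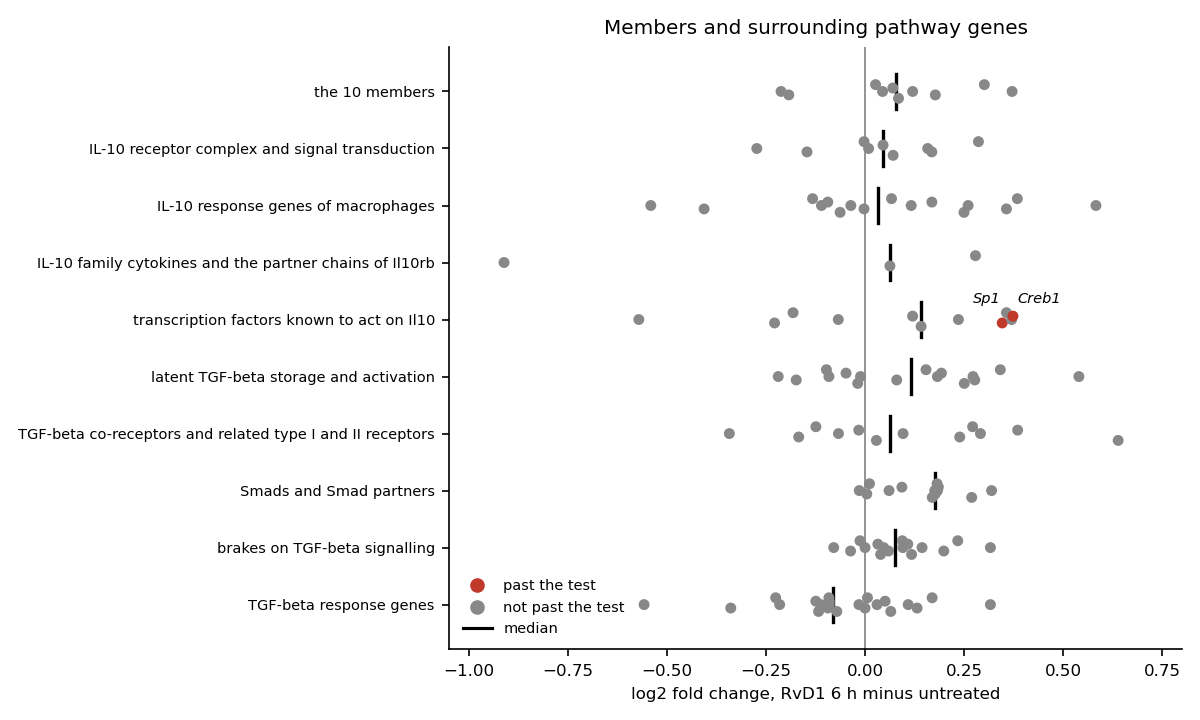
Log2 fold change of RvD1 6 h minus untreated (horizontal axis) for the 10 genes and for the genes of 9 surrounding lists (rows); each point is a gene, red where it passed the test, and black lines are medians. Only Sp1 and Creb1 are red, and the medians run from -0.08 for the response genes to 0.18 for the Smads and their partners.

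The cells carried the markers of their label, and markers of other cells were present beside them. All 8 macrophage markers were above 0 in every library, with summed normalized reads of 102546 to 130732 in RvD1 libraries and 99669 to 128871 in untreated libraries. Fibroblast markers were abundant too. Of 6, 5 were above 0 in every library, and the type I collagen gene Col1a1 stood at 13.83 to 14.39 (log2) in RvD1 libraries and 14.10 to 14.30 in untreated libraries. None of the 6 passed the test, and 5 had positive log2 fold changes, with a median of 0.25, while that of Col1a1 was -0.11. The summed fibroblast level was 54356, 34842 and 40541 in RvD1 libraries, against 45127, 38591 and 42451 in untreated libraries. RvD1 replicate 1, the highest library in that sum, was also the highest for Tgfb2, Tgfb3 and Smad3, and it had the highest endothelial sum, at 1321. Without it the log2 fold change of Tgfb3 was 0.09, against 0.18 with it. The 6 endothelial markers had a median log2 fold change of 0.51 (4 positive, 2 negative) and the 5 mast cell markers 0.60 (4 positive, 1 negative). Both medians were larger than that of the fibroblast markers, and none of these markers passed the test. Mast cell markers summed to 166, 63.1 and 146 in RvD1 libraries, against 92.6, 48.4 and 81.5 in untreated libraries. The part of these cells in the ligand values was not tested, and in bulk RNA fewer cells of a type and less RNA per cell cannot be told apart. The 5 megakaryocyte and platelet markers summed to 6735 to 7901 in RvD1 libraries and 7593 to 8822 in untreated libraries. Which cells these reads came from was not tested. All 7 markers of neutrophils and their precursors were above 0 in every library, and none passed the test. In replicates 1, 2 and 3 they summed to 4190, 6027 and 11000 with RvD1, against 3320, 5249 and 11676 in untreated libraries. Of 7 T cell markers, 3 were above 0 in every library, with sums of 122 to 208 in RvD1 libraries and 121 to 182 in untreated libraries, while the defining genes Cd3e and Cd3g were at 0 throughout. Of 5 B cell markers, 1 was above 0 in every library, with sums of 33.7 to 41.9 in RvD1 libraries and 28.5 to 45.7 in untreated libraries, while Ms4a1 and Pax5 were at 0 throughout. Depth, estimated from the spacing of low values, was 11.2 to 16.3 M reads in RvD1 libraries and 9.07 to 14.3 M in untreated libraries.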

How the data were processed

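Poly-A RNA libraries were made from 100 to 400 ng of RNA and sequenced on a HiSeq, per the labels' protocols. The submitters' processing notes list TopHat2 2.0.7 and mm10. The counter, its strand setting, the annotation and the normalization method were not given in the sources used here. For each of 38087 genes the authors deposited 1 normalized value per library, read here as log2 normalized reads with a floor at 0. The scale was read from the values, which lie between 0 and 17.4, with antilogs summing to 12.4 to 12.8 M. Of values worth up to 20 reads, 40.7% to 49.1% were whole to within 0.02 reads, so no count test was run. Other columns of libraries numbered 0.

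Genes above 0 in at least 3 libraries were fitted with limma 3.58.1 in R 4.3.3, with treatment as the only term, a variance prior that follows the mean, 4 residual and 4.62 prior degrees of freedom, and two-sided tests with Benjamini-Hochberg adjustment. The script was tested on simulated data. The correction for length and GC content subtracted splines of 4 degrees of freedom fitted to each library. Lengths, GC content and coordinates came from GENCODE M21, which held 36308 of the 38087 identifiers (95.3%). Promoter windows came from RefSeq and were searched for 5 of the 10 genes. Windows far from the GENCODE start, and any on chromosome 18, where Smad7 lies, were left out of the search. The axis genes and the lists were chosen with earlier results of these data known. Named were the 10 axis genes, each list's genes past the test (up to 4) or its gene with the smallest p, the genes Smad2, Smad4, Stat3 and Socs3, and the 3 genes most like Il10 and Tgfb1 over the libraries. A further gene of the naming rule and a marker are not reported here. Other genes are named as overlapping neighbours or as cell type markers. Alternatives changed the variance prior, scaling, filter, floor, replicate block, length and GC correction, and libraries used. Library pairs differed by 2.31 to 5.98 times the counting variance, and pairs within a group by 2.31 to 4.45 times. The wider range also holds any difference between treatments. This ratio cannot tell repeat libraries of 1 culture from libraries of separate cultures, and each library was entered on its own.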

Additional observations from a re-analysis of the deposited data

How the results depend on the processing

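None of the 10 axis genes passed limma under 15 of the 17 alternatives. The exceptions were the fits with a replicate block, with 2 each. Of 169 values of the axis genes, 157 kept their direction and side of the threshold, 4 passed newly and 8 changed sign. Over all genes, 211 passed in the reported fit, 1 without the variance trend, 12 without a filter, 464 at a mean of at least 5, 30 after the length and GC correction, and 0 to 451 without 1 library (451 without RvD1 replicate 1; 0 without RvD1 replicate 2 or 3 or untreated replicate 3; 5 and 3 without untreated replicates 1 and 2; 2623 to 4123 at an unadjusted limma p under 0.05). Of the pathway genes, 2 passed in the reported fit, 0 without the trend, 1 with median centring, 0 without a filter, 0 after the correction and 0 to 3 without 1 library. The cause was not tested.

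With the replicate number as a block, 1896 of all genes (10%) passed, 18 pathway genes and 2 axis genes, Tgfb2 (limma adjusted p = 0.0138) and Tgfbr1 (limma adjusted p = 0.00674). With the replicate block and the correction together, 762 genes, 9 pathway genes and 2 axis genes passed, Tgfb2 at 0.27 (limma adjusted p = 0.0435) and Tgfb3 at 0.22 (limma adjusted p = 0.0486). Deviations of same-numbered libraries correlated at 0.30, -0.08 and 0.42 for replicates 1, 2 and 3 over 13176 genes. For RvD1 replicates 1 and 3 these were their highest r values, against -0.38 and -0.39 with untreated replicates 3 and 1. RvD1 replicate 2 correlated best with untreated replicate 3, at 0.06. Relative to the counting variance, RvD1 replicate 1 differed by 3.62 from untreated replicate 1, and by 4.23 and 4.45 from RvD1 replicates 2 and 3. RvD1 replicate 3 differed by 3.87 from untreated replicate 3, by 4.45 from RvD1 replicate 1 and by 2.50 from RvD1 replicate 2. RvD1 replicate 2 differed by 5.88, 5.97 and 5.86 from untreated replicates 1, 2 and 3. No label says what the numbers share, so the block was kept as an alternative, and whether the libraries are paired was not settled.

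Without 1 library, Il10 ranged from -0.47 to -0.02, Il10rb from 0.05 to 0.19, Tgfb1 from -0.26 to -0.10, Tgfb2 from 0.23 to 0.53, Tgfb3 from 0.09 to 0.26, Tgfbr1 from 0.22 to 0.39, Tgfbr2 from 0.05 to 0.13, Il10ra from -0.11 to 0.20, Smad3 from -0.0048 to 0.14, Smad7 from -0.064 to 0.12, Smad2 from -0.033 to 0.047, Stat3 from -0.037 to 0.041 and Socs3 from -0.11 to 0.076. After the correction, with or without the block, Tgfbr2 was at -0.021, Smad2 at -0.17, Stat3 at -0.0099 and Socs3 at 0.16. Quantile normalization gave -0.015 for Smad2 and -0.0079 for Stat3, and median centring gave -0.0038 for Smad2. With median transcript lengths, 3 genes kept their place by level. Precision was least for Il10, with the fewest reads.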

Other observations

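Over the 6 libraries, the genes whose log2 values most resembled those of Il10 were Fbxo6, Gm11516 and Rhno1, with Pearson r of 0.986, 0.983 and 0.973 and Spearman rho of 0.943, 1 and 1, among 13176 genes whose mean log2 value was 5 or more. An r over 0.95 was reached by 7 of them. For Tgfb1 they were Bcl3, Mfsd5 and Upf1, with r of 0.995, 0.994 and 0.993 and rho of 1 each, and 105 of 13175 genes exceeded 0.95. Bcl3, an inhibitor of NF-kappaB factors that interleukin-10 is known to induce, had a log2 fold change of -0.41 (limma adjusted p = 0.211). These are descriptions without a test. Both genes of a pair share the depth of each library, and the Il10 values rest on few reads.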
